A study of Mus musculus with 7 samples.

Results

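The calpain family was followed in LSK cells (Lin-Sca1+Kit+), the bone marrow compartment of stem cells and early progenitors of the blood. The 9 members were the proteases Capn1, Capn2, Capn5, Capn7, Capn10, Capn11 and Capn15, the small subunit Capns1 and the inhibitor Cast, out of 24421 gene symbols in the deposited counts. Members were found by gene symbol, and Capn11 was chosen by its genotype difference in these same samples. The difference of Capn11 is therefore given as a description without a test. For the other 8 members the rule names symbols and no measured value, though the list was drawn up with earlier results of these data known, and they were tested among all genes. All 9 of 9 members passed the filter on low counts that left 13340 genes for testing. Capn11 passed it through the counts of the samples in which it is high.

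To ask how loss of an allele of Ddx41, a DEAD-box RNA helicase gene, affects the transcriptome of stem and progenitor cells, RNA was sequenced from 4 Ddx41+/+ and 3 Ddx41+/- LSK samples. Lethally irradiated BoyJ mice received bone marrow that carried Rosa-CreERT2, a ubiquitously expressed recombinase that tamoxifen activates, in both groups. Donors of the Ddx41+/- group carried 1 heterozygous floxed Ddx41 allele, and donors of the Ddx41+/+ group were wild-type at Ddx41. Tamoxifen was injected in both groups (2 rounds of 5 days at 1 mg), and the LSK sort took place 8 weeks after transplantation. Ages were not given, no donor marker was named for the sort, so residual recipient cells may be among the cells, and the mice were kept on a C57BL/6N background per the study's methods. The labels do not state whether every sample came from its own mouse, so p-values measure the spread between these samples. Total counts ranged from 32234499 to 43751290 per sample and did not differ detectably by genotype (exact two-sided permutation p = 0.457, with 0.0286 the smallest p that the design allows). Ddx41 itself was at 97.9 ± 6.43 CPM (counts scaled to library size, SD, n = 4) in Ddx41+/+ and 67.3 ± 2.63 CPM (n = 3, SD) in Ddx41+/- samples, a log2 fold change of -0.54 ± 0.07 (SE, edgeR adjusted p = 0.0052).

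Calpains are cysteine proteases of the cytosol that calcium activates and that cut their substrates at few positions, so that a cleaved protein is often altered in activity rather than destroyed. The classical enzymes Capn1 and Capn2 each pair with the small subunit Capns1, and Cast, calpastatin, is their dedicated inhibitor. Calpains act on adhesion and cytoskeletal proteins, and have been studied in platelets, red cells and migrating leukocytes. Capn11 is a member of the classical structural type that is known chiefly from the testis.

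The proteases share a catalytic cysteine, and the coding sequence around it is shown to set Capn11 beside each of the others at that place. The 63 bases around that codon were read from GENCODE M21 transcripts on the GRCm38 assembly, 5′ to 3′ on the coding strand, with the cysteine codon in capitals.
Capn11: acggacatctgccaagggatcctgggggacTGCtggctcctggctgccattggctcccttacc
Capn1: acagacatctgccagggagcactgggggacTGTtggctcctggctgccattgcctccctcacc
Capn2: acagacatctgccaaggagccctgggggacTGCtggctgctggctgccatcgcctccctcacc
Capn5: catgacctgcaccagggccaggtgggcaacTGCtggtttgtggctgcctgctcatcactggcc
Capn10: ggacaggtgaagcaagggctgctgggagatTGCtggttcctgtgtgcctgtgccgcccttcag
Capn15: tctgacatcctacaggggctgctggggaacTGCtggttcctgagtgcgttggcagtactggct
Capn7: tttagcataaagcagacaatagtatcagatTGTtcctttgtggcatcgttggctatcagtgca
Of the 63 bases, 54 in Capn1 and 55 in Capn2 were equal to those of Capn11, compared with 40 in Capn15, 39 in Capn10, 36 in Capn5 and 24 in Capn7. The cysteine is codon 115 in Capn11 and Capn1 and codon 105 in Capn2. In all 3 genes the window crosses an exon junction, between exons 3 and 4 in Capn11 and Capn1 and between exons 2 and 3 in Capn2. Capns1 and Cast lack a protease domain and are not shown. None of the 2759 distinct stretches of 75 bases in Capn11 transcripts occurred in a transcript of another gene, 75 bases being the read length.

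Capn11 (ENSMUSG00000058626.16) lies on the minus strand at chr17:45630204-45659325 of GRCm38, with 22 exons and 2142 coding bases. In the Ddx41+/+ samples its raw counts were 0, 6, 0 and 0 in replicates 1 to 4. In the Ddx41+/- samples they were 81, 104 and 81 in replicates 6 to 8. The groups did not overlap, and replicate 2 was the 1 Ddx41+/+ sample with any count. CPM without overlap between genotypes, in either direction, was seen for 10.1% of all genes tested. The 266 counts of the Ddx41+/- samples gave a mean of 2.32 ± 0.67 CPM (SD, n = 3), and the 6 counts of the Ddx41+/+ samples a mean of 0.0388 ± 0.0776 CPM (SD, n = 4). The plot of Capn11 by sample shows the counting intervals.

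**Figure D1:**
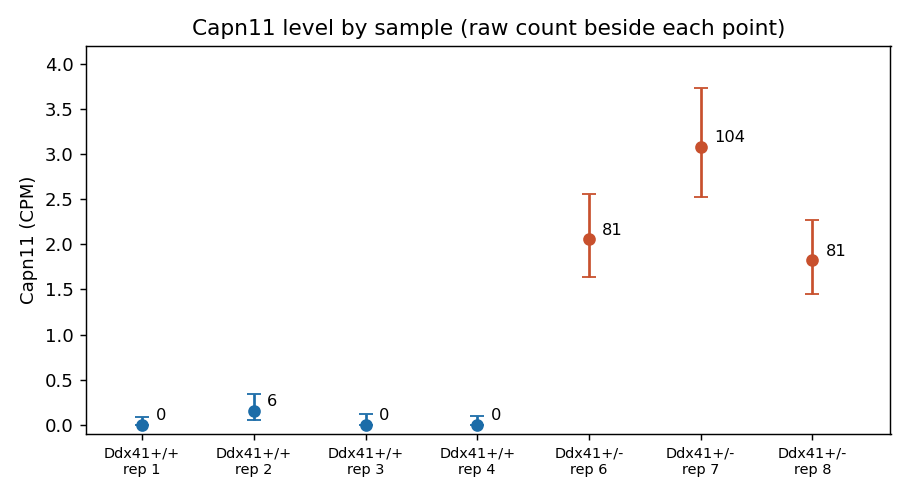
Capn11 level in CPM (y axis) in each of the 7 samples (x axis, Ddx41 genotype and replicate), with exact Poisson 95% intervals as bars and the raw count beside each point. The Ddx41+/- samples sit between 1.83 and 3.08 CPM, and the highest Ddx41+/+ sample is at 0.155 CPM.

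Capn11 was measured at 2.06 CPM (exact Poisson 95% interval 1.63 to 2.56) in Ddx41+/- replicate 6, at 3.08 CPM (2.52 to 3.74) in replicate 7 and at 1.83 CPM (1.45 to 2.27) in replicate 8. In Ddx41+/+ replicate 2 it was at 0.155 CPM (0.057 to 0.338), and the counts of 0 in replicates 1, 3 and 4 allow up to 0.0892, 0.117 and 0.102 CPM at the same confidence. The 3-count floors of those samples were 0.0725, 0.0948 and 0.0829 CPM. Thus the intervals of the genotypes lay apart in every sample, although Capn11 remained a low transcript where it was detected. Intervals and floors cover counting error alone, and the sources used here do not say if a count is a read or a read pair. Counts summed within each genotype and scaled to library size differed 55.8-fold, with a counting interval of 25.3 to 153. Without Ddx41+/+ replicate 2 that group held no counts, and the lower counting limit of the ratio was 66.6. That limit comes from summed counts and leaves out the spread between samples. Set against the floor of 3 counts over that group, the ratio was 82.4. Without Ddx41+/- replicate 7, the highest sample, the difference was 47.7-fold (21.4 to 132). In bulk samples, fewer cells of a type and less RNA per cell cannot be told apart, so these values do not say whether few or many LSK cells carried the transcript.

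To place Capn11 among its relatives, levels were compared per length, as CPM per kb of exon. Capns1 had the highest level with 91.7 over all samples (range 79.4 to 101), followed by Capn1 with 35.03 (33.9 to 37.1) and Capn7 with 13.4 (12.4 to 14.2). Capn5 followed with 7.49, Capn15 with 6.38, Cast with 6.11, Capn10 with 4.25 and Capn2 with 3.44 CPM per kb. Capn5 and Capn15, Capn15 and Cast, and Capn10 and Capn2 overlapped between samples, and these neighbours in the order are not separated. Capn11 was last, at 0.858 ± 0.247 CPM per kb (SD, n = 3) in Ddx41+/- and at 0.0143 CPM per kb on average in Ddx41+/+ samples. Its mean level in Ddx41+/- samples stood at the 19.3rd percentile of the genes tested, and in Ddx41+/+ samples at the 0.0545th. Genes that low in both genotypes were removed by the filter, which Capn11 passed through its Ddx41+/- counts. The low place of Capn11 in Ddx41+/+ samples thus follows from the filter and is no separate result. Capns1 stood at the 96.7th percentile in Ddx41+/+ and at the 96.0th in Ddx41+/- samples, and Capn1 at the 88.1st in both.

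**Figure D2:**
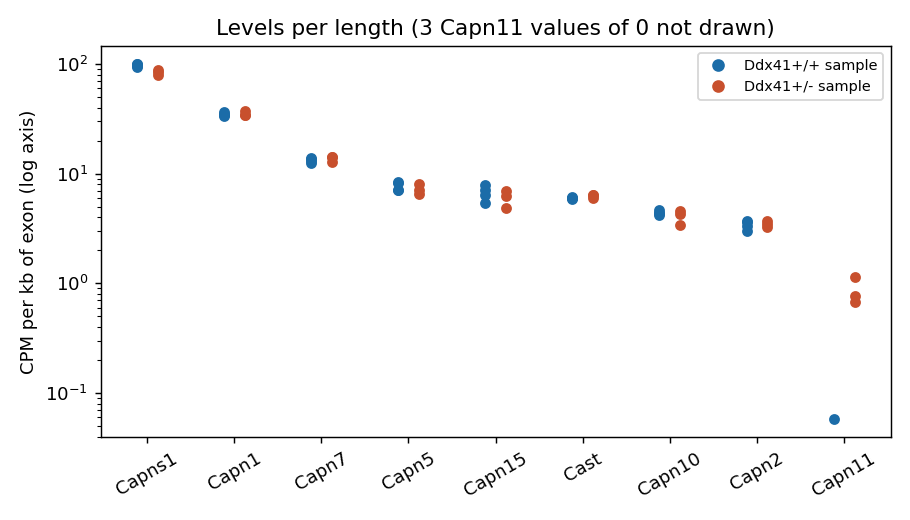
Level of each of the 9 members in CPM per kb of exon (y axis, log scale) in the 7 samples, with Ddx41+/+ samples in blue and Ddx41+/- samples in orange. The order runs from Capns1 at 91.7 over all samples to Capn11, for which the Ddx41+/+ values of 0 cannot be drawn on a log axis.

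The 7 proteases summed to 70.3 ± 1.80 CPM per kb (SD, n = 4) in wild-type and 70.4 ± 1.41 CPM per kb (SD, n = 3) in Ddx41+/- samples. Capn1 made up 49.7% of this protease pool in Ddx41+/+ and 49.9% in Ddx41+/- samples. Capn11 made up 0.0202% ± 0.0404 (SD, n = 4) and 1.21% ± 0.327 (SD, n = 3), so that a gene near 0 in Ddx41+/+ samples stayed a minor part of the family transcripts in Ddx41+/- samples. The order below Capn7 depends on which length is used. With the longest transcript in place of all exons, 5 members changed rank, with Cast at 13.6 and Capn2 at 6.77 CPM per kb.

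The classical proteases did not differ detectably by genotype. Capn1 (chr19:5988545-6015897) encodes the large subunit of the enzyme active at low calcium. Its levels were 116, 115, 113 and 122 CPM in the 4 Ddx41+/+ samples and 115, 124 and 114 CPM in the 3 Ddx41+/- samples. The groups overlapped, and the log2 fold change of Capn1 was 0.0075 with a 95% interval of -0.13 to 0.14 (edgeR adjusted p = 0.981). Ddx41+/- samples held 101% of the Ddx41+/+ mean of Capn1, and its interval ran from 91.6% to 110.4%, while the sign of the difference turned with upper-quartile scaling and with library totals. Capn2 (chr1:182467260-182517608) encodes the large subunit of the enzyme that needs more calcium. Its levels were 23.6, 23.0, 21.1 and 19.0 CPM in Ddx41+/+ and 23.3, 22.2 and 20.8 CPM in Ddx41+/- samples. The groups again overlapped, with a log2 fold change of 0.026 for Capn2 (95% interval -0.20 to 0.25, edgeR adjusted p = 0.958). Of the stretches of 75 bases in Capn2 transcripts, 22.2% also occurred in Gm37885, against 3.04% shared with another gene for Capn1. Whether shared stretches affected the counts was not tested.

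Capns1 (chr7:30186936-30198811), the small subunit that both classical enzymes need, had the smallest unadjusted p of the 8 members. Its levels were 234, 245, 249 and 238 CPM across the 4 Ddx41+/+ samples and 221, 208 and 197 CPM across the 3 Ddx41+/- samples. All 3 Ddx41+/- samples lay below all 4 Ddx41+/+ samples. The mean was 241 ± 7.04 CPM (SD, n = 4) for Ddx41+/+ against 208 ± 11.9 CPM (SD, n = 3) for Ddx41+/- samples, or 86.3% with a 95% interval of 79.0% to 94.3%. The log2 fold change was -0.21 ± 0.06 (SE, unadjusted p = 0.00276). After adjustment over the 13340 genes Capns1 did not pass the threshold of 0.05 (edgeR adjusted p = 0.201, DESeq2 0.0733, limma-voom 0.206). Over all 14 alternatives its log2 fold change ran from -0.26 to -0.17 and its adjusted p from 0.0733 to 0.512.

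Cast (chr13:74692368-74808810), the inhibitor, was at 68.4, 67.3, 70.7 and 68.5 CPM across the Ddx41+/+ samples and at 69.4, 72.9 and 73.3 CPM across the Ddx41+/- samples. The groups overlapped at their edge. Ddx41+/- samples held 104.6% of the Ddx41+/+ mean of Cast, with a 95% interval of 95.01% to 115% (edgeR adjusted p = 0.781). Cast transcripts shared 7.46% of their stretches of 75 bases with other genes, Erap1 among them, and Capns1 transcripts shared 3.0%.

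**Figure D3:**
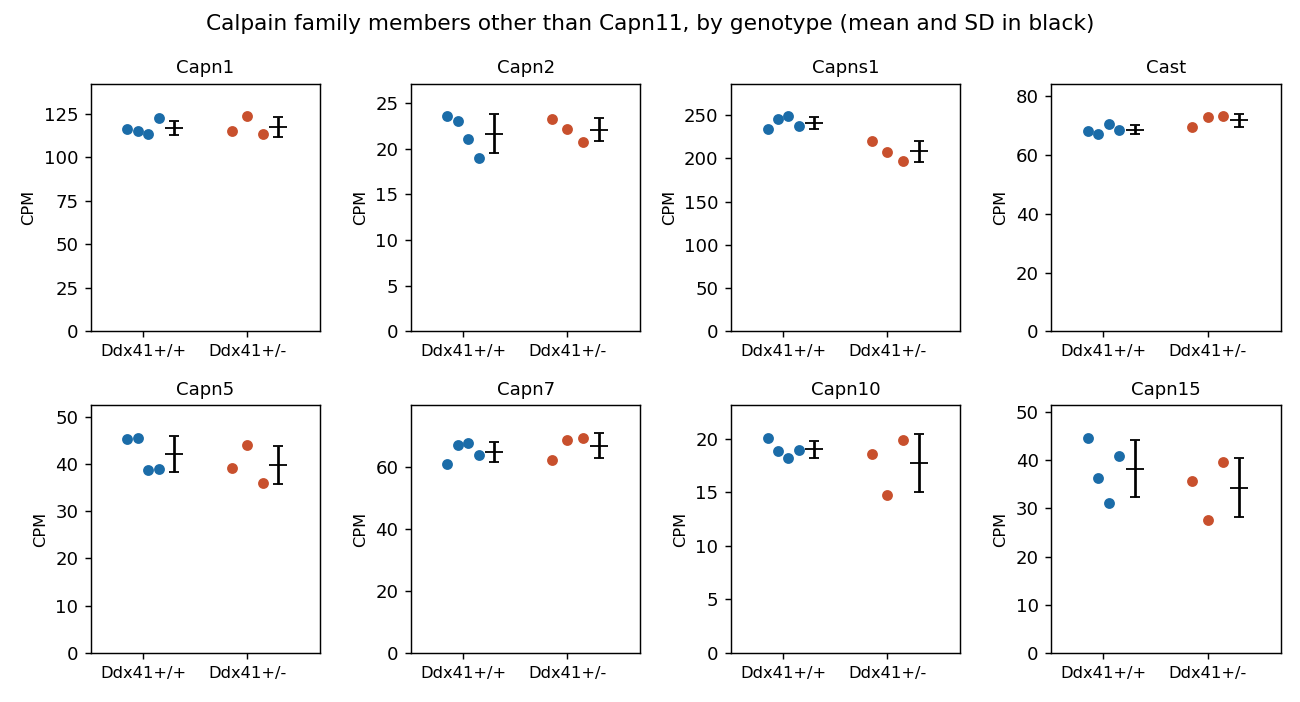
Level in CPM (y axis, from 0) of the 8 members other than Capn11 in Ddx41+/+ (blue, n = 4) and Ddx41+/- samples (orange, n = 3), with mean and SD in black. The groups overlap for every member but Capns1, with means of 241 and 208 CPM and an adjusted p of 0.201.

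The balance of subunits and inhibitor was described by ratios of CPM per kb in each sample, with no test, since they combine members. Capns1 over the sum of Capn1 and Capn2 was 2.45, 2.59, 2.71 and 2.42 across the Ddx41+/+ samples and 2.34, 2.07 and 2.13 across the Ddx41+/- samples. The groups did not overlap, and the mean ratio in Ddx41+/- samples was 85.7% of that in Ddx41+/+ samples, close to the 86.3% of Capns1 alone. Cast over the sum of Capn1 and Capn2 was 0.156 ± 0.0065 (SD, n = 4) for Ddx41+/+ against 0.162 ± 0.00809 (SD, n = 3) for Ddx41+/- samples, and here the groups overlapped. Capn1 was 10.3 ± 1.33 times Capn2 in Ddx41+/+ and 10.1 ± 0.654 times in Ddx41+/- samples. These ratios are of transcripts and depend on the exon lengths, and protein subunits were not measured.

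**Figure D4:**
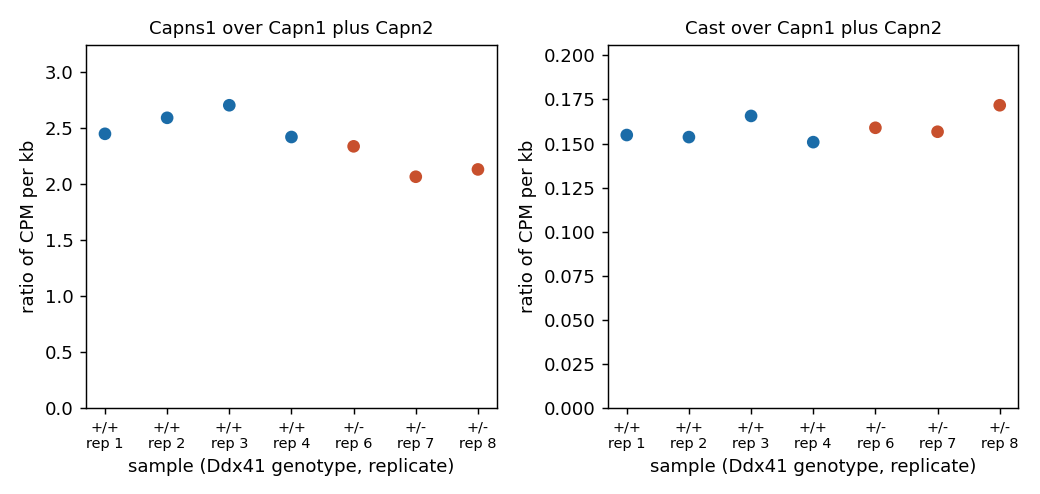
Ratio of CPM per kb of exon (y axis) for Capns1 over Capn1 plus Capn2 and for Cast over Capn1 plus Capn2, by sample (x axis, Ddx41 genotype and replicate). The Capns1 ratio lies at 2.42 or above in the Ddx41+/+ samples and at 2.34 or below in the Ddx41+/- samples, while the Cast ratios overlap.

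The members outside the classical type were then examined. Capn5 (chr7:98121559-98178274), which has a C2-like domain in place of the calcium-binding end, was at 42.1 ± 3.83 CPM (SD, n = 4) for Ddx41+/+ against 39.7 ± 4.01 CPM (SD, n = 3) for Ddx41+/- samples. By sample Capn5 was at 45.2, 45.6, 38.7 and 38.8 CPM and at 39.2, 43.99 and 36.03 CPM. Capn7 (chr14:31336638-31371986), which binds proteins of the endosomal sorting machinery, was at 64.9 ± 3.19 and 66.7 ± 4.02 CPM. Its lowest sample, Ddx41+/+ replicate 1, had 60.9 CPM and its highest, Ddx41+/- replicate 8, had 69.3 CPM. Capn10 (chr1:92934376-92947941), known from studies of diabetes risk, was at 19.0 ± 0.802 and 17.8 ± 2.69 CPM. Ddx41+/- replicate 7, with 14.7 CPM of Capn10, lay below the other 6 samples at 18.2 to 20.1 CPM, and without it the log2 fold change turned from -0.096 to 0.018. Capn15 (chr17:25958364-25985796), a zinc-finger calpain on the same chromosome as Capn11, was at 38.3 ± 5.86 and 34.3 ± 6.11 CPM. Capn15 was at 44.7, 36.3, 31.1 and 40.9 CPM and at 35.7, 27.6 and 39.5 CPM, the most spread of the 8 tested members in both genotypes, with coefficients of variation of 15.3% and 17.8%. Levels of all 4 genes overlapped between genotypes. Their 95% intervals, as a percentage of the Ddx41+/+ mean, were 82.0% to 108.5% for Capn5, 92.4% to 115% for Capn7, 78.5% to 111% for Capn10 and 73.4% to 109% for Capn15. The edgeR adjusted p-values were 0.805, 0.889, 0.825 and 0.728 in that order. Capn10 and Capn15 transcripts shared 12.6% and 11.3% of their stretches of 75 bases with 9430060I03Rik and D630044L22Rik, Capn7 shared 0.867% with Sh3bp5, and Capn5 shared none.

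Of the 8 members other than Capn11, 0 passed an adjusted p of 0.05 with edgeR, DESeq2 or limma-voom, against 0.217% of all genes tested with edgeR. At an unadjusted p under 0.05, 1 of 8 passed, which was Capns1, against 10.6% of all genes. Likewise 1 of 8 had no overlap between genotypes, again Capns1, against 10.1%. Both shares of the members lie near their backgrounds. Their median log2 fold change was -0.039, compared with -0.0048 over all genes tested, with 4 members positive and 4 negative.

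**Figure D5:**
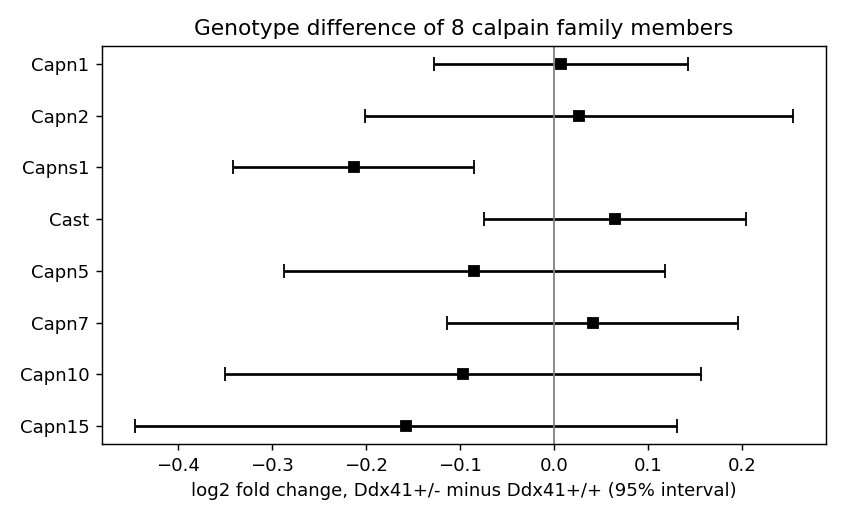
Log2 fold change, Ddx41+/- minus Ddx41+/+ (x axis), of the 8 members other than Capn11, with 95% intervals from edgeR. The interval of Capns1, -0.34 to -0.09, lies below 0, and the other intervals include 0.

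Other calpain symbols were looked up to see how complete this picture is. Of 9 searched, 8 had a row and 2 were tested. Capn3, the calpain of skeletal muscle, had 2.49 CPM in Ddx41+/+ and 2.06 CPM in Ddx41+/- samples (edgeR adjusted p = 0.819). In CPM it lay near the level that Capn11 had in Ddx41+/- samples. The exons of Capn3 span 5023 bases against 2708 in Capn11, so per length Capn3 lay below Capn11 in those samples. Adgb, a globin with a calpain-like domain, had 0.988 and 1.05 CPM (adjusted p = 0.966). Capn12 was listed at 0 in every sample, and Capn6, Capn8, Capn9, Capn13 and Capns2 had totals of 2, 14, 5, 23 and 12 counts over all 7 samples.

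The genome around Capn11 was examined in turn. Within 200 kb of it, 20 genes were annotated, of which 13 were in the counts, 10 were tested and 0 passed the adjusted test, with 1 at an unadjusted p under 0.05 in edgeR. Over all genes tested 0.217% passed the adjusted test and 10.6% had an unadjusted p under 0.05. Tmem63b, on the same strand and 845 bases beyond the end of Capn11 that holds its start, was at 11.9 ± 1.45 CPM in Ddx41+/+ and at 11.3 ± 0.636 CPM in Ddx41+/- samples (adjusted p = 0.893). Slc35b2 was at 84.8 ± 2.56 and 75.8 ± 4.08 CPM, lower without overlap (unadjusted p = 0.0299, adjusted p = 0.405). It was the 1 of 10 tested neighbours without overlap, against 10.1% of all genes, so both shares lie near their backgrounds. The median log2 fold change of the 10 tested neighbours was 0.0023. Slc29a1 and the chaperone gene Hsp90ab1, at 124 against 125 CPM and 4393 against 4451 CPM, overlapped between genotypes. No neighbour passed under any of the 14 alternatives, DESeq2 and limma-voom among them. The RefSeq promoter of Capn11 (GRCm38.p6, chr17:45659260-45659559, minus strand, 250 bases before to 50 after the start) held 3 CpG, against a median of 7 over 32851 promoters. It held GGGCGG, searched on both strands, as do 35.7% of these promoters, and neither TATAAA nor TGACGTCA, which 13.6% and 1.79% hold.

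Since Capn11 is best known from the testis, 18 germ cell genes were checked beside it. Prm2, Tnp1, Sycp1, Odf1, Pgk2 and Akap4, 6 of the 18, were at 0 in every sample, and 5 were tested with 0 passing the adjusted test and 0 an unadjusted p under 0.05. Their summed level was 6.99 to 9.54 CPM in Ddx41+/+ and 7.89 to 9.38 CPM in Ddx41+/- samples, so the sums overlapped, and most of each sum came from Ddx4 and Zpbp. Ddx4, a germ cell helicase, was at 3.76 and 3.62 CPM, and Zpbp, a sperm head protein gene, was at 2.74 and 3.89 CPM, higher without overlap (adjusted p = 0.501). Adam2, a sperm surface protein gene, was lower without overlap, at 0.532 to 0.774 CPM in Ddx41+/+ and 0 to 0.406 CPM in Ddx41+/- samples (adjusted p = 0.517). Its counts were low, from 0 to 29 per sample. Of the 5 tested germ cell genes 1 was thus higher and 1 lower without overlap, against 10.1% of all genes in either direction. Gapdhs, a sperm glycolytic enzyme gene that was not tested, had 0 counts in each Ddx41+/+ sample and 1, 14 and 2 counts in Ddx41+/- replicates 6, 7 and 8. Its groups did not overlap, but the counts of replicates 6 and 8 lie below the floor of 3 counts used for Capn11. Its separation therefore rests on 1 and 2 counts.

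The 5 genes whose log2 CPM followed Capn11 most closely over the 7 samples were Zfp54, Apba1, Snord43, Zfp97 and Gria3, with Pearson r of 0.994, 0.989, 0.977, 0.9753 and 0.973. These r are descriptions, since all share the genotype split of the samples. Apba1, an adaptor protein gene, was at 28.8 ± 1.40 and 37.7 ± 1.69 CPM, and Gria3, a glutamate receptor subunit gene, was at 121 ± 6.26 and 148 ± 4.12 CPM. Zfp54 and Zfp97, zinc-finger genes on the same chromosome as Capn11, were at 3.44 and 4.73 CPM and at 0.558 and 1.18 CPM. None of the 5 passed the adjusted test in edgeR, with adjusted p of 0.0791 for Apba1 and Gria3. With DESeq2 both passed (adjusted p = 0.0052 for Apba1 and 0.00493 for Gria3), and with limma-voom neither did (0.0991 for both).

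Genes that act with calpains gave 0 genes past the adjusted threshold with edgeR, DESeq2 or limma-voom. The penta-EF-hand proteins Pdcd6, Pef1, Sri and Gca, which share the calcium-binding fold of Capns1, had 0 of 4 passing the adjusted test and a median log2 fold change of -0.034. Of 14 cytoskeletal and adhesion substrates 0 passed, with Flna at 976 and 1064 CPM and Tln1 at 942 and 988 CPM, and a median of 0.042. Cttn, cortactin, was lower at 31.2 and 26.7 CPM without overlap (adjusted p = 0.419). Of 10 signalling and cell death substrates 0 passed, with a median of 0.018. Bid, at 136 and 147 CPM (adjusted p = 0.525), and Ppp3ca, at 112 and 121 CPM (adjusted p = 0.58), were higher without overlap, and 2 of 10 stands against 10.1% of all genes in either direction. Of 14 genes for calcium stores, entry and calmodulin 0 passed, with Itpr1, a calcium release channel gene, at 123 and 149 CPM (adjusted p = 0.381) and a median of 0.0067. At an unadjusted p under 0.05, Cttn and Itpr1 were the members of these lists that passed. Each was 1 of the 14 genes of its list, against 10.6% of all genes tested.

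Other cell types could be present in a sorted LSK sample, so their markers are given beside Capn11 and Capns1. Kit was at 466 CPM in Ddx41+/+ and 468 CPM in Ddx41+/- samples, and 10 of 10 LSK markers were tested. Of these 10, 9 had a negative log2 fold change, 5 were lower at an unadjusted p under 0.05 and 3 of them, Slamf1, Meis1 and Gata2, were lower without overlap, with a median of -0.22. Over all genes tested, 10.6% had an unadjusted p under 0.05 and 10.1% had no overlap, in either direction. The LSK markers summed to 1861 to 2015 CPM in Ddx41+/+ and to 1693 to 1842 CPM in Ddx41+/- samples, with Gata2 passing as lower (140 against 99.4 CPM, adjusted p = 0.0471), a call that was lost with library totals, median-of-ratios scaling, limma-voom and a non-robust fit, and without Ddx41+/+ replicate 3 or 4 or any of the Ddx41+/- samples. The 10 neutrophil markers summed to 741, 918, 1255 and 1079 CPM across the Ddx41+/+ samples, and to 2283, 1589 and 1335 CPM across Ddx41+/- replicates 6 to 8, so the groups did not overlap. With edgeR 1 of them passed the adjusted test, Mmp9, at 5.62 and 16.7 CPM (adjusted p = 0.00677, past the threshold under all 14 alternatives). Mmp8 also passed with DESeq2 (adjusted p = 0.0018), without a filter and without Ddx41+/+ replicate 3, and Lcn2 without Ddx41+/- replicate 8. Of the 10 markers, 9 were higher at an unadjusted p under 0.05 and 7 were higher without overlap, with a median log2 fold change of 0.84. Cxcr2 went the other way, at 9.22 and 7.79 CPM with overlap (edgeR adjusted p = 0.697). The 5 megakaryocyte markers, all with a negative log2 fold change and 3 of 5 lower at an unadjusted p under 0.05, summed to 172 to 205 CPM in Ddx41+/+ and to 130 to 154 CPM in Ddx41+/- samples, with Pf4 passing as lower (48.6 against 33.0 CPM, adjusted p = 0.0283), a call lost with limma-voom and without Ddx41+/+ replicate 2 or 3 or Ddx41+/- replicate 6 or 8. Of the 5 megakaryocyte markers, 2 were lower without overlap.

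The summed markers of the other lists overlapped between genotypes, and 0 of their genes passed the adjusted test with edgeR, DESeq2 or limma-voom. At an unadjusted p under 0.05, 3 of 7 B-lineage genes passed as higher and 1 of 6 genes of stroma and endothelium as lower, against 10.6% of all genes. All 7 B-lineage and all 7 macrophage genes tested had a positive log2 fold change, with medians of 0.54 and 0.29. For 7 macrophage markers they spanned 201 to 230 CPM among Ddx41+/+ samples and were 239, 278 and 204 CPM in Ddx41+/- replicates 6, 7 and 8. For B-lineage markers they ran from 42.4 to 63.2 and from 57.0 to 78.7 CPM, and for T and NK cell markers from 224 to 276 and from 255 to 284 CPM. Nearly all of the T and NK sum came from the single gene Nkg7, at 221 to 272 and 250.5 to 281 CPM. Late erythroid markers ran from 104 to 205 and from 135 to 173 CPM, with Hba-a1 and Hbb-bs listed at 0 in all samples. Stroma and endothelium markers ran from 142 to 165 and from 158 to 164 CPM, most of it from Pecam1 at 133 to 156 and 138 to 154 CPM. The part of any of these cell types in the values of Capn11 and Capns1 was not tested.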

How the data were processed

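RNA-seq was performed on LSK cells of 4 Ddx41+/+ and 3 Ddx41+/- samples, grouped by the genotype in the labels. The authors deposited raw counts per gene symbol, and the submitters' processing notes name FastQC 0.11.7, HISAT2 2.0.5, featureCounts 1.5.2 and the mm10 assembly. The labels name a stranded library kit and the study's methods another kit, and the strand setting of the counting is not stated. Per the name of the deposited table a Ddx41+/- library numbered 5 was removed from it, and it was not analysed here. All sample columns were used. Differential expression was tested with edgeR 4.0.16 in R 4.3.3 (robust quasi-likelihood test after filterByExpr, with TMM scaling by a trimmed mean of M values), with Benjamini-Hochberg adjustment over 13340 genes and a threshold of 0.05. DESeq2 1.42.0, limma 3.58.1 with voom, other scalings, no filter, a non-robust fit and leaving out each sample were alternatives. The biological coefficient of variation was 12.9%. CPM are counts scaled to the TMM library size, and log2 CPM were taken with a prior count of 2. The 95% intervals of Capn11 are exact Poisson or binomial. Those of the fold changes come from the edgeR log2 fold change and its SE. Exon lengths and positions came from GENCODE M21, to which 23376 symbols matched. The members and lists were chosen with earlier results of these data known. Named were the members, Ddx41, the other calpain symbols, neighbours of Capn11 within 200 kb, the 5 genes most correlated with Capn11, and of each list the genes past the threshold and up to 4 with the highest levels. Cttn, Itpr1, Gapdhs, Slamf1, Meis1, Mmp8, Lcn2, Cxcr2 and the markers or germ cell genes listed at 0 were named after their values were seen. The code was tested on simulated data.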

Additional observations from a re-analysis of the deposited data

Results flagged for a closer look

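Capn11 in the Ddx41+/+ samples was at 0.155 CPM in replicate 2, with 6 counts, and at 0 in the other 3 samples, so its gap to the nearest sample was the whole range of the group. With 3 samples at 0, any count in the fourth gives this result. Of 24 values checked in groups of 4 samples this was the 1 marked as far from the rest, and chance marks about 1 in 20, or 1.2 here. Without this sample the Ddx41+/+ group held 0 counts of Capn11.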

How the results depend on the processing

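Capn11 was among the genes fitted, but its test result is not given because it was chosen by its difference. Its ratio of summed counts was 55.8 with TMM, 55.9 with median-of-ratios scaling and 55.3 with library totals. With 3 and 4 samples per group, small changes are not detectable, and low counts limit Capn11 in Ddx41+/+ samples. The count of genes past the threshold, 29 (16 higher, 13 lower), was 15 (6 higher, 9 lower) with library totals, 91 without a filter, 164 with DESeq2, 10 with limma-voom, 14 with a non-robust fit, and 7 to 41 when a sample was left out, with 7 without Ddx41+/+ replicate 2, 9 and 14 without Ddx41+/- replicates 8 and 7, and 16 without Ddx41+/+ replicate 3. Of the listed genes 3 passed, with 4 under DESeq2, 4 without a filter and 1 under limma-voom. With the longest transcript 5 members changed rank per length. Capn1 turned to a log2 fold change of -8.5e-06 with upper-quartile scaling and of -0.0081 with library totals. With a sample left out, the log2 fold change ran from -0.033 to 0.031 for Capn1, from -0.032 to 0.070 for Capn2 and from -0.19 to 0.018 for Capn10. The cause was not tested. None of the 8 members passed under any of the 14 alternatives, and Ddx41 passed under all 14. No paired analysis was possible because Ddx41+/+ and Ddx41+/- samples share no replicate number.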
